A study of Mus musculus with 18 samples.

Results

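The proteasome, the immunoproteasome and the Nfe2l1 axis were examined in the adipose tissue of mice whose adipocytes lack CSN8, a subunit of the COP9 signalosome. The members were taken by symbol: every Psma, Psmb, Psmc, Psmd, Psme, Psmf or Psmg gene with its number, together with Pomp, Nfe2l1, Ddi2 and Ngly1. This gave 53 of the 55487 genes counted, and 51 of them passed the filter on low counts in each comparison. Ctrl mice carried the floxed Csn8 f/f alleles without Cre, and Csn8AKO mice carried the same alleles with AdipoqCre, in which the adiponectin promoter drives Cre in adipocytes and removes exons 4 to 6, so that the other cells of the tissue keep the gene. Subcutaneous white adipose tissue (sWAT) came from 4 Ctrl and 4 Csn8AKO males at 12 weeks of age, and brown adipose tissue (BAT) from 5 Ctrl and 5 Csn8AKO males at 4 weeks, all fasted for 4 h, with 1 mouse per library. Depot and age therefore cannot be told apart in any comparison between BAT and sWAT.

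The proteasome degrades proteins marked with ubiquitin. Its 20S core is a barrel with outer rings of alpha subunits and inner rings of beta subunits, of which Psmb5, Psmb6 and Psmb7 carry the active sites; the 19S particle, built from ATPases (Psmc) and non-ATPase subunits (Psmd), caps the barrel and unfolds its substrates. In lymphoid cells, and under interferon, the active subunits are replaced by Psmb8, Psmb9 and Psmb10 to form the immunoproteasome, which makes peptides for class I antigen presentation and often works with the activator of Psme1 and Psme2. NFE2L1 is held in the endoplasmic reticulum, deglycosylated by NGLY1 and cut by DDI2 before it enters the nucleus to raise proteasome genes, and it is known for keeping proteasome activity up in brown fat. The COP9 signalosome, itself related in structure to the lid of the 19S particle, removes NEDD8 from the cullin ubiquitin ligases that feed the proteasome.

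Total RNA was depleted of ribosomal RNA and sequenced. Between 15835721 and 66719937 reads were counted per library, and all BAT libraries were deeper than all sWAT libraries. Ribosomal RNA genes still took up to 47.8% of the counts in sWAT Csn8AKO 4 and 31.8% in sWAT Csn8AKO 3. Levels are given as CPM, a gene's reads relative to the TMM-scaled size of its library. sWAT Ctrl 1 and sWAT Csn8AKO 2 stood apart by lymphocyte markers: the 8 B cell markers summed to 208 and 526 CPM there, against 6.83 to 20.97 in the other sWAT libraries, and the 8 T cell markers to 275 and 350.0 against 6.52 to 33.5. The sum of the 8 macrophage markers was higher in Csn8AKO mice without overlap in both depots (989 to 1803 against 629 to 916 CPM in sWAT, 265 to 322 against 89.3 to 120.3 in BAT), with 5 of the 8 called higher in sWAT, 8 in BAT and none at 0 in any library. The brown adipocyte markers summed to 2853 to 6488 CPM in Ctrl BAT and 72.9 to 118 in Ctrl sWAT. Skeletal muscle markers were present in every sWAT library (43.2 to 2633 CPM) and reached 116 and 212 CPM in BAT Csn8AKO 1 and 5, against at most 3.00 in the other BAT libraries. Cops8, as the files name Csn8, ran from 38.0 to 46.0 CPM in Ctrl BAT and from 28.3 to 37.3 in Csn8AKO BAT (log2 fold change -0.30, edgeR adjusted p = 0.0211), and from 31.8 to 35.7 and 27.0 to 34.8 in sWAT (-0.12, adjusted p = 0.623). Since only 3 exons are removed, and only in adipocytes, a count over the whole gene does not check the genotype labels.

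Most calls among the proteasome genes were made between the depots. In Ctrl mice, 27 of the 51 tested members were higher in BAT than in sWAT and 3 were lower (edgeR's quasi-likelihood test, adjusted p under 0.05 after Benjamini-Hochberg adjustment over all genes tested), where 25.7% and 27% of all genes were called in these directions. The 3 lower members were the catalytic subunits of the immunoproteasome. Among the tested members, 22 were higher and 3 lower in BAT with no overlap between the groups, against 24.1% and 21.5% of all genes. The median log2 fold change was 0.30 over the members and 0.0063 over all genes, and the 21 members not called lay between -0.13 and 0.43. When libraries were scaled by size alone, which moved the median of all genes to -0.19, 11 members were higher and 3 lower, against 16.9% and 30.0% of all genes. In the Csn8AKO libraries, which share no library with that comparison, 19 members were higher in BAT and 3 lower, against 23.2% and 24.9% of all genes. Of the 30 members called in Ctrl mice and the 22 called in Csn8AKO mice, 20 were called in the same direction in both.

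Between genotypes the changes were small. In BAT, 4 members were higher and 11 lower in Csn8AKO mice, where 16% and 15.8% of all genes were called, so that the 11 of 51 lower members lay near this background and the 4 higher ones below it. The log2 fold changes ran from -0.56 to 0.31, with a median of -0.11 against 0.0063 over all genes, and the 36 members not called stayed within -0.34 to 0.31. In sWAT, 1 member, Nfe2l1, was lower, where 3% of all genes were lower, and the other 50 stayed within -0.43 to 0.31. The groups did not overlap for 3 members that were lower in sWAT (Nfe2l1, Psmf1 and Psmd11) and 0 that were higher, against 7.98% and 5.64% of all genes. In BAT they did not overlap for 3 lower members (Psmg1, Psmd5 and Psmf1) and 0 higher ones, against 11.6% and 9.5%. No member was higher in sWAT by edgeR, DESeq2 or limma voom, where 2.3%, 5.00% and 5.72% of all genes were higher. At an unadjusted p under 0.05 by edgeR, 0 members were higher and 3 lower in sWAT, against 1862 and 1976 of all 18843 genes. The genotype comparisons share their Ctrl libraries with the depot comparison, and the values of each are given side by side below. When libraries were scaled by size alone, which moved the median of all genes in BAT to 0.14, the split in BAT turned to 8 members higher and 2 lower and the median of the members to 0.0094. Over all genes that scaling called 18.7% higher and 9.34% lower.

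**Figure D1:**
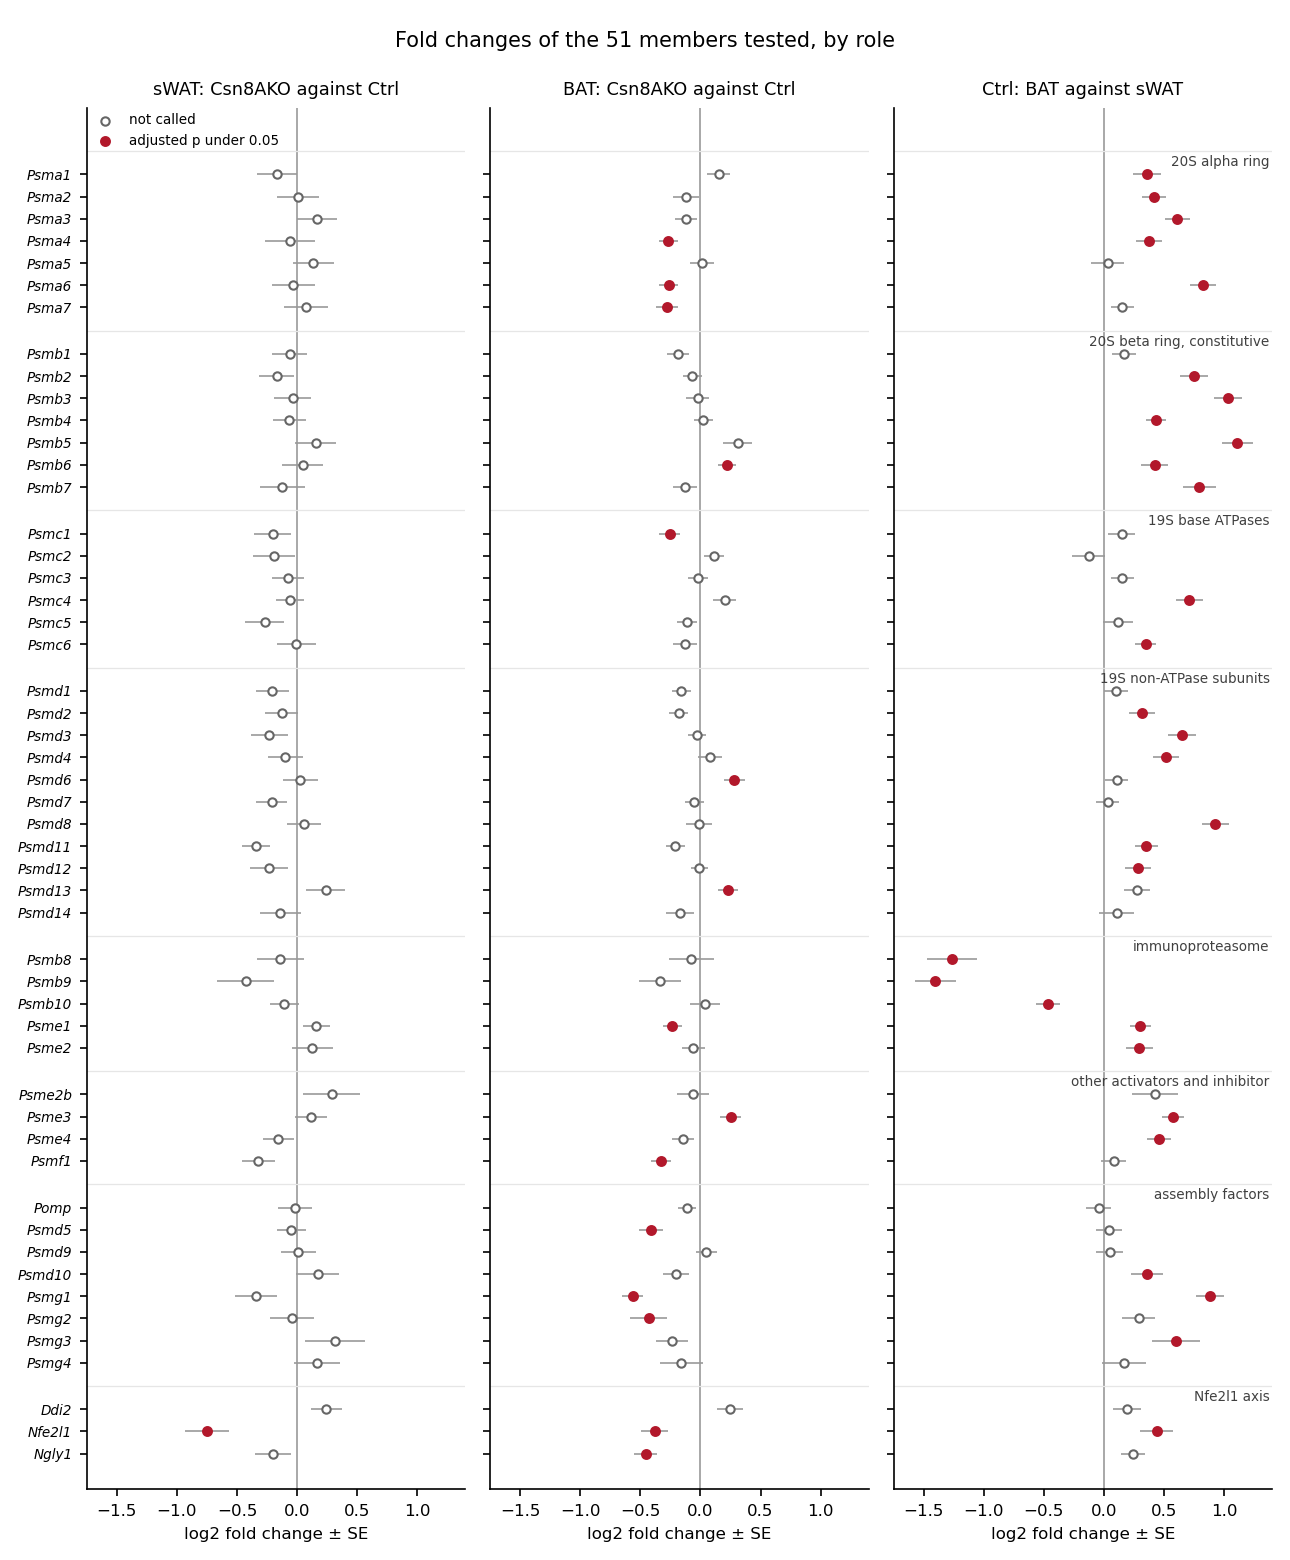
Log2 fold change (x axis, with its SE) of each of the 51 members tested (y axis, grouped by role) for Csn8AKO against Ctrl in sWAT, Csn8AKO against Ctrl in BAT, and BAT against sWAT in Ctrl mice, with filled points for an adjusted p under 0.05. The called constitutive subunits lie to the right of 0 in the depot comparison while Psmb8, Psmb9 and Psmb10 lie to its left, and the genotype comparisons stay within -0.75 to 0.31.

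Transcripts of the 20S core were more abundant in BAT, with the higher median in the beta ring. Of the 7 constitutive beta subunits tested, 6 were higher in Ctrl BAT than in Ctrl sWAT (median log2 fold change 0.75). Of the 7 alpha subunits tested, 5 were higher (median 0.37). None of these alpha and beta subunits was lower, where 25.7% of all genes were higher and 27% lower. In Csn8AKO mice 6 of the 7 beta and 2 of the 7 alpha subunits were higher in BAT, against 23.2% of all genes. Psma8 and Psmb11, known as the testis and thymus forms of their rings, had at most 6 and 11 reads in a library and were not tested.

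Psmb5, the constitutive chymotrypsin-like subunit (ENSMUSG00000022193, chr14:54614119-54618022, minus strand), was the member furthest above its sWAT level in BAT. Its level was 24.5, 29.3, 20.7 and 20.3 CPM in the 4 Ctrl sWAT libraries and 56.2, 45.9, 60.01, 46.0 and 57.0 CPM in the 5 Ctrl BAT libraries, so that every BAT library lay above every sWAT library (log2 fold change 1.11 ± 0.13, adjusted p = 9.93e-06). In Csn8AKO mice it was 28.8, 19.2, 28.4 and 28.8 CPM in sWAT and 51.6, 86.1, 62.9, 60.9 and 62.6 CPM in BAT. Csn8AKO BAT overlapped Ctrl BAT, its highest value being that of Csn8AKO 2, and the genotype comparison missed the threshold in BAT (0.31 ± 0.12, adjusted p = 0.0679) and in sWAT (0.16 ± 0.17, adjusted p = 0.671). In BAT, 4 of 21 alternatives called it higher, among them library size alone (0.42, adjusted p = 0.00561) and limma voom (0.27, adjusted p = 0.0479). Psmb3, a beta subunit without an active site, was next, at 34.6, 39.5, 29.0 and 38.3 CPM in Ctrl sWAT and 80.2, 69.4, 82.8, 63.4 and 79.2 CPM in Ctrl BAT (1.03 ± 0.11, adjusted p = 6.20e-06). In Csn8AKO mice it was 42.2, 26.8, 36.2 and 32.2 CPM in sWAT and 72.3, 88.1, 65.7, 70.8 and 66.7 CPM in BAT. Its genotype fold changes were -0.035 ± 0.15 in sWAT and -0.023 ± 0.10 in BAT, neither of them called.

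Psmb6, the caspase-like subunit, was the one constitutive beta subunit that edgeR called between genotypes. In BAT limma voom called 2 higher and 1 lower, where it called 20.1% and 20.2% of all genes. Ctrl BAT held 102, 90.0, 95.6, 86.7 and 98.1 CPM and Csn8AKO BAT 102, 120.5, 107, 109 and 104 CPM, with all but 1 of the Csn8AKO values above the highest Ctrl value, so that the groups touched by a narrow margin (log2 fold change 0.22 ± 0.073, adjusted p = 0.0336). The call was lost under 10 of 21 alternatives, among them leaving out Ctrl 2, 3 or 4 or Csn8AKO 2 or 4. In sWAT, the values 62.5, 84.4, 57.6 and 67.8 CPM in Ctrl and 84.8, 51.9, 80.4 and 63.4 CPM in Csn8AKO mice overlapped (0.049 ± 0.17, adjusted p = 0.910). Psmb7, the trypsin-like subunit, was higher in Ctrl BAT (72.8, 64.0, 63.0, 54.0 and 61.5 CPM) than in Ctrl sWAT (32.0, 46.8, 27.7 and 33.9 CPM), without overlap (0.79 ± 0.14, adjusted p = 3.40e-04). Csn8AKO mice held 39.7, 23.7, 30.1 and 34.9 CPM in sWAT and 54.8, 71.2, 53.1, 54.2 and 51.3 CPM in BAT, and the genotype difference was -0.13 ± 0.10 in BAT and -0.12 ± 0.19 in sWAT, not called in either. An exon of Psmb7 overlaps Nek6 on the opposite strand and one of Psmb5 holds the microRNA gene Mir686.

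Of the 7 tested alpha subunits, which gate the barrel, 3 were lower in Csn8AKO BAT and none was higher, where 15.8% and 16% of all genes were called. Psma4 was 74.3, 66.3, 69.2, 57.0 and 65.5 CPM in Ctrl BAT and 53.1, 60.2, 54.9, 50.3 and 53.5 CPM in Csn8AKO BAT (log2 fold change -0.27 ± 0.08, adjusted p = 0.0198). Psma6 was 97.3, 88.3, 85.8, 78.8 and 85.1 CPM in Ctrl and 72.6, 81.8, 69.8, 68.8 and 64.6 CPM in Csn8AKO mice (-0.26 ± 0.08, adjusted p = 0.0214). Psma7 was 85.0, 74.5, 71.9, 63.7 and 78.3 CPM in Ctrl and 61.5, 71.7, 59.4, 54.7 and 56.3 CPM in Csn8AKO mice (-0.28 ± 0.092, adjusted p = 0.0328). In each of them the highest Csn8AKO value was that of Csn8AKO 2, within the Ctrl range, and the other 4 lay below every Ctrl value. All 3 calls were lost when both depots entered a single fit, when lymphocyte marker levels were a covariate, and when libraries were scaled by size alone. The summed T cell markers differed by genotype in BAT, so that this covariate goes partly with genotype there. Leaving out 1 library lost the call of Psma4 in 1 of 10 fits (Csn8AKO 4), of Psma6 in 4 (Ctrl 1 and Csn8AKO 3, 4 and 5) and of Psma7 in 6 (those and Ctrl 2 and 5). In sWAT none of them was called, and the groups overlapped. Psma4 was 42.5, 59.4, 48.5 and 47.8 CPM in Ctrl and 67.9, 31.6, 50.97 and 38.9 CPM in Csn8AKO sWAT. Psma6 was 41.3, 57.7, 42.8 and 48.3 CPM in Ctrl and 58.8, 31.6, 49.96 and 44.8 CPM in Csn8AKO sWAT. Psma7 was 59.1, 69.8, 63.5 and 66.8 CPM in Ctrl and 90.3, 47.0, 78.3 and 56.5 CPM in Csn8AKO sWAT, and in all 3 genes Csn8AKO 1 was the highest and Csn8AKO 2 the lowest library of its group. Psma6 also differed between depots (log2 fold change 0.82 ± 0.11, adjusted p = 2.87e-05), and per kilobase of gene length it was the most abundant constitutive subunit in Ctrl BAT, at 70.6 CPM per kb against a median of 24.9 over the 31 subunits. The gene length of the files is that of all exons of all transcripts of a gene, so levels per kilobase are lower for genes with many non-coding transcripts.

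The catalytic subunits of the immunoproteasome ran the other way between depots. Psmb8 (ENSMUSG00000024338, chr17:34197721-34201454, plus strand), the inducible counterpart of Psmb5, was 38.3, 28.8, 22.8 and 26.4 CPM in Ctrl sWAT and 17.6, 14.8, 9.24, 11.7 and 9.50 CPM in Ctrl BAT, with every BAT value below every sWAT value (log2 fold change -1.27 ± 0.21, adjusted p = 3.16e-04). Psmb9 (ENSMUSG00000096727, chr17:34181987-34187764, minus strand), the counterpart of Psmb6, was 43.8, 39.0, 22.9 and 32.0 CPM in Ctrl sWAT and 15.4, 15.2, 11.9, 13.5 and 11.4 CPM in Ctrl BAT, again without overlap (-1.41 ± 0.17, adjusted p = 1.69e-05). Psmb10, the counterpart of Psmb7, differed less, at 39.4, 36.8, 32.1 and 40.8 CPM in Ctrl sWAT and 30.0, 30.7, 26.4, 27.7 and 25.1 CPM in Ctrl BAT, and the groups did not overlap either (-0.47 ± 0.10, adjusted p = 0.00139). The highest Psmb8 and Psmb9 values among the sWAT Ctrl libraries were those of Ctrl 1, the library rich in lymphocyte markers. Without it the log2 fold changes were -1.09 (adjusted p = 6.14e-04) for Psmb8, -1.25 (adjusted p = 2.58e-05) for Psmb9 and -0.42 (adjusted p = 0.00480) for Psmb10.

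Psmb8 and Psmb9 were also lower in BAT among Csn8AKO mice (-1.18 ± 0.17, adjusted p = 1.02e-04, and -1.29 ± 0.22, adjusted p = 4.52e-04), while Psmb10 was not called there (-0.30 ± 0.15, adjusted p = 0.114). Markers of immune cells moved with these genes: macrophage markers summed to 629 to 916 CPM in Ctrl sWAT and 89.3 to 120.3 in Ctrl BAT, T cell markers to 6.52 to 275 and 3.34 to 5.22, and B cell markers to 7.10 to 208 and 5.44 to 9.57, with 8, 7 and 6 of the markers called lower in BAT. Their part in the depot difference was not tested, and in bulk tissue fewer cells of a type and less RNA per cell cannot be told apart. Exons of Psmb9 overlap Tap1 and those of Psmb8 overlap Gm20496 on the opposite strand, and whether counting used the strand is not given in the sources used here.

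**Figure D2:**
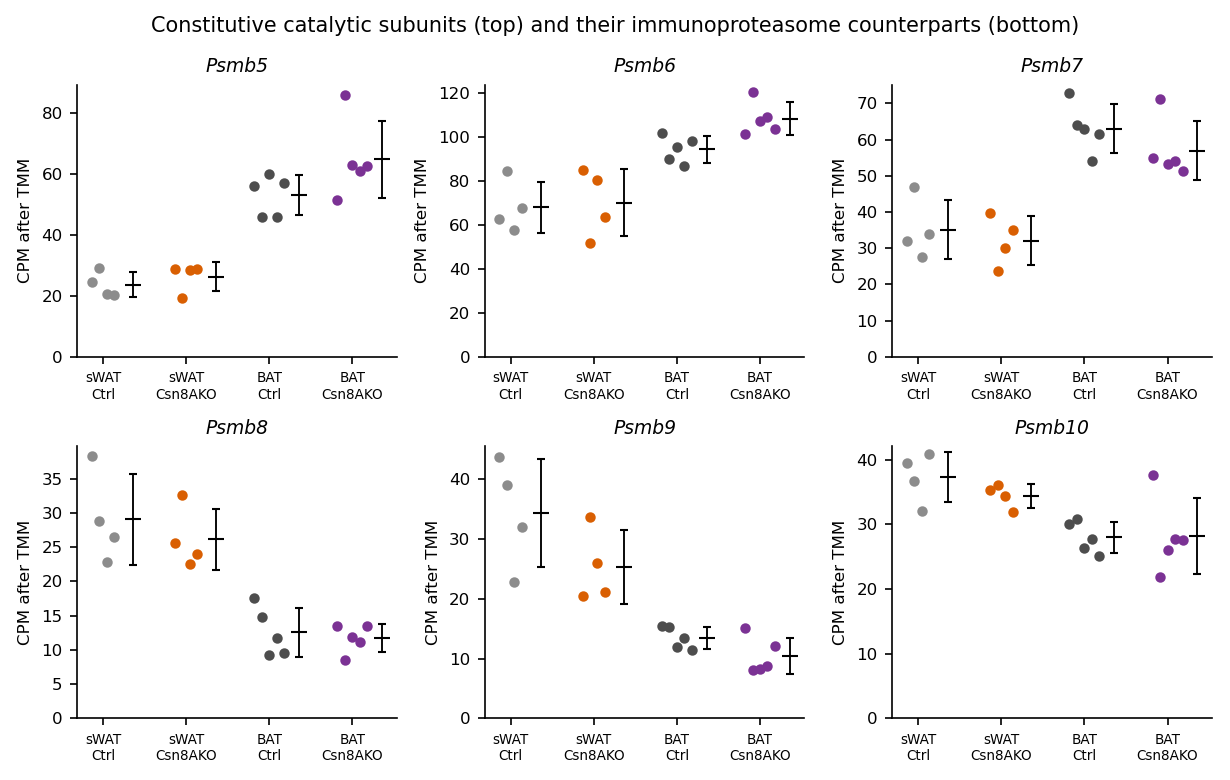
CPM after TMM scaling (y axis, starting at 0) of the constitutive catalytic subunits and of their immunoproteasome counterparts in each library (points), with the mean and SD of each group beside them. Psmb5, Psmb6 and Psmb7 sit higher in BAT and Psmb8 and Psmb9 sit lower in BAT in both genotypes. Psmb10 sits lower in BAT among Ctrl mice, while its Csn8AKO points overlap between the depots. The Ctrl and Csn8AKO points overlap in each depot.

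Between genotypes, none of the 3 catalytic immunoproteasome subunits was called by edgeR in either depot, and none had an unadjusted p under 0.05. The summed macrophage markers were higher in Csn8AKO mice of both depots, and their part was not tested. In sWAT, Psmb8 was 25.6, 32.6, 22.6 and 24.0 CPM in Csn8AKO mice (log2 fold change -0.14 ± 0.20, adjusted p = 0.748). Psmb9 was 20.4, 33.8, 25.99 and 21.2 CPM there (-0.43 ± 0.24, adjusted p = 0.352), and Psmb10 was 35.3, 36.1, 34.4 and 31.9 CPM (-0.11 ± 0.12, adjusted p = 0.688). The highest Csn8AKO value of Psmb8 and Psmb9 was that of Csn8AKO 2, the other library rich in lymphocyte markers. Without Ctrl 1 and Csn8AKO 2 the sWAT log2 fold changes were -0.10 (adjusted p = 0.7099) for Psmb8, -0.46 (adjusted p = 0.168) for Psmb9 and -0.10 (adjusted p = 0.701) for Psmb10. In Csn8AKO BAT, Psmb8 was 13.5, 8.57, 11.9, 11.1 and 13.5 CPM (-0.076 ± 0.18, adjusted p = 0.794). Psmb10 was 37.7, 21.8, 26.04, 27.6 and 27.6 CPM (0.036 ± 0.13, adjusted p = 0.861), its highest value being that of Csn8AKO 1. Psmb9 was 15.1, 8.12, 8.22, 8.69 and 12.1 CPM (-0.34 ± 0.18, adjusted p = 0.167), and limma voom (-0.42, adjusted p = 0.0418) and the fit without BAT Csn8AKO 1 (-0.51, adjusted p = 0.0208) called it lower.

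The ratio of an inducible subunit to its constitutive counterpart was higher in sWAT for all 3 pairs. Per kilobase, the Psmb8 to Psmb5 ratio was 0.416, 0.262, 0.292 and 0.346 in the Ctrl sWAT libraries, or 0.329 ± 0.0678 (mean ± SD, n = 4), and 0.0832, 0.0858, 0.0409, 0.0678 and 0.0443 in the Ctrl BAT libraries, or 0.0644 ± 0.0211 (n = 5). The Psmb9 to Psmb6 ratio was 0.260 ± 0.0678 and 0.0733 ± 0.0114, and the Psmb10 to Psmb7 ratio 2.20 ± 0.419 and 0.896 ± 0.0954. None of the 3 ratios overlapped between the depots. In Csn8AKO mice they were 0.280 ± 0.115, 0.198 ± 0.0922 and 2.24 ± 0.587 in sWAT and 0.0504 ± 0.0157, 0.05004 ± 0.0174 and 1.02 ± 0.274 in BAT, each overlapping the Ctrl values of its depot. The ratios join members that were measured in the comparisons above and were not tested by themselves.

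**Figure D3:**
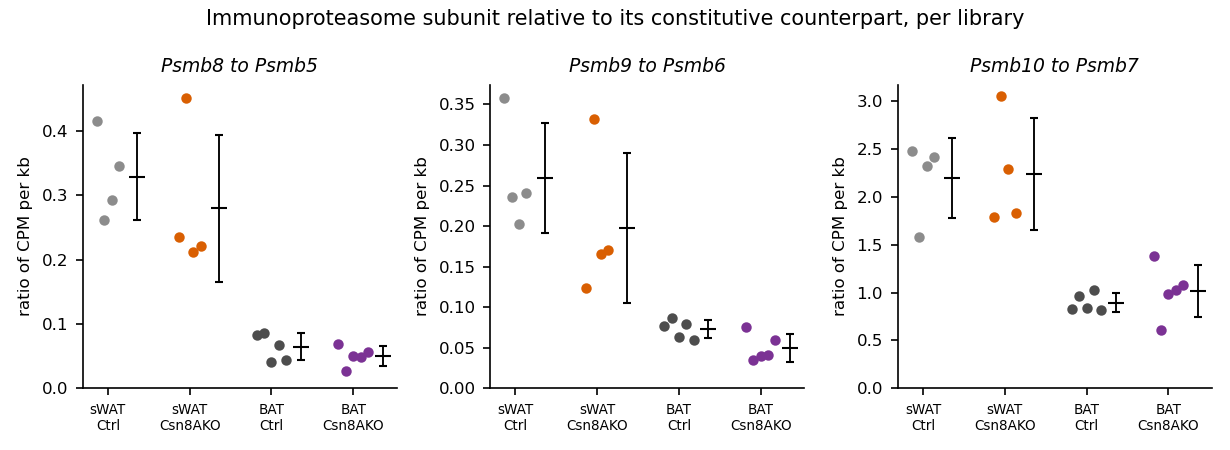
Ratio of CPM per kilobase (y axis, starting at 0) of Psmb8 to Psmb5, Psmb9 to Psmb6 and Psmb10 to Psmb7 in each library, with the mean and SD of each group. The sWAT points lie above the BAT points in all 3 panels, and the highest Psmb8 to Psmb5 ratio, 0.451, is that of sWAT Csn8AKO 2.

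The promoters of both constitutive and inducible subunits are shown for 2 of the 3 pairs that moved in opposite directions, together with that of Nfe2l1, since Psmb7 had no entry in the table. They are the 250 bases before and 50 bases after the RefSeq start of each gene (GRCm38.p6), 5′ to 3′ on the strand of the gene, with matches in capitals to TGACNNNGC (core of the antioxidant response element, bound by NFE2L1 and its relatives), GAAANNGAA (interferon regulatory factor element), TTCNNNGAA (gamma-activated site) or CCAAT, searched on both strands.
Psmb5 (chr14:54617946-54618245, minus strand): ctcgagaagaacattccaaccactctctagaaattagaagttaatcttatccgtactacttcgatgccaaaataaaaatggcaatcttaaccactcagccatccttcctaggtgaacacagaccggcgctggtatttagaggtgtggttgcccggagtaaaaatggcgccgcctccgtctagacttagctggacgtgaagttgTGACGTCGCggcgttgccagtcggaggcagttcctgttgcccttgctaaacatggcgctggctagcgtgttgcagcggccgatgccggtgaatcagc
Psmb8 (chr17:34197945-34198244, plus strand): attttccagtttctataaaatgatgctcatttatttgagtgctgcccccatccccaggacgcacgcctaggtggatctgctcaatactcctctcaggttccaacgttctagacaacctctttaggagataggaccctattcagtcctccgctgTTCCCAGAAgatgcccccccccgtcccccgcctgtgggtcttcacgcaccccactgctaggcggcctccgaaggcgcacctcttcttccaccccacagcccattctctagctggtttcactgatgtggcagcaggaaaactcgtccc
Psmb6 (chr11:70525107-70525406, plus strand): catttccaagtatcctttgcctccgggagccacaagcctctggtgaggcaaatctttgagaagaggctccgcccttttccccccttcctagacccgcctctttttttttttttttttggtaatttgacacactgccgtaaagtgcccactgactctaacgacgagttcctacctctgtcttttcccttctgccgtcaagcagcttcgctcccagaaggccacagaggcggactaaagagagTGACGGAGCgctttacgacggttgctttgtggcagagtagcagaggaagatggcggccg
Psmb9 (chr17:34187281-34187580, minus strand): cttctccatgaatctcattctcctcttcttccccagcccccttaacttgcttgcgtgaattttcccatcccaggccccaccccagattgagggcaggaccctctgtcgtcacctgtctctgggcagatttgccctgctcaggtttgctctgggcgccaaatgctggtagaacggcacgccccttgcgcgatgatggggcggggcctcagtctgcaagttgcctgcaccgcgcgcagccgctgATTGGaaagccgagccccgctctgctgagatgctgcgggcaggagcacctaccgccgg
Nfe2l1 (chr11:96829919-96830218, minus strand): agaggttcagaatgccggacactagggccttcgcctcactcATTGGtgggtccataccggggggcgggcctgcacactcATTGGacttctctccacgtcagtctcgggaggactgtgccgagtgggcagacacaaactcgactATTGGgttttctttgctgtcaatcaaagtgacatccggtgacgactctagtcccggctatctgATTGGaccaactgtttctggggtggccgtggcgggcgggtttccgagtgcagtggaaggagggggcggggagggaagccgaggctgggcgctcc
Psmb5 and Psmb6 each hold 1 match to the antioxidant response element core, the former 47 bases before the start and the latter 9 bases before it, Psmb8 holds 1 gamma-activated site, Psmb9 holds 1 CCAAT box and Nfe2l1 holds 4 CCAAT boxes.

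Of the 53 members, 45 had a promoter in the table. The antioxidant response element core occurred in 6 of the 45 (13.3%) against 12.5% of all 27025 promoters, the interferon regulatory factor element in 7 of the 45 (15.6% against 8.57%), the gamma-activated site in 3 of the 45 (6.67% against 8.47%) and the CCAAT box in 15 of the 45 (33.3% against 37.9%). Among the 5 immunoproteasome genes, 1 held the interferon regulatory factor element (Psme1) and 1 the gamma-activated site (Psmb8). A match says that these letters occur in the window and nothing about binding.

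Psme1 and Psme2, which form the 11S activator, did not follow the catalytic subunits. Psme1 was higher in Ctrl BAT (79.1, 75.3, 69.5, 81.0 and 66.7 CPM) than in Ctrl sWAT (60.03, 61.4, 52.7 and 58.7 CPM), without overlap (log2 fold change 0.30 ± 0.088, adjusted p = 0.0110). It fell in Csn8AKO BAT, where the 5 values of 67.6, 65.5, 60.6, 56.4 and 60.6 CPM lay below all but 1 of the Ctrl values (-0.24 ± 0.08, adjusted p = 0.0354). The call was lost under 8 of 21 alternatives, among them leaving out Ctrl 1, 2 or 4 or Csn8AKO 3, 4 or 5. In Csn8AKO sWAT its values of 69.4, 61.1, 68.9 and 59.3 CPM overlapped Ctrl (0.16 ± 0.11, adjusted p = 0.481), and in Csn8AKO mice it did not differ by depot at the threshold (-0.072 ± 0.11, adjusted p = 0.612). Psme2 was also higher in Ctrl BAT, at 55.7, 54.5, 43.1 and 52.3 CPM in Ctrl sWAT and 75.9, 62.7, 73.4, 58.4 and 56.1 CPM in Ctrl BAT (0.29 ± 0.11, adjusted p = 0.0446), a call lost under 8 of 18 alternatives. In Csn8AKO mice it was 75.4, 44.6, 57.5 and 46.6 CPM in sWAT (0.13 ± 0.17, adjusted p = 0.734) and 62.4, 69.8, 60.2, 56.0 and 59.8 CPM in BAT (-0.062 ± 0.10, adjusted p = 0.666). Psme2b is a near-identical copy of Psme2, so that the share of reads each received from unique alignments is uncertain, and exons of Psme1 overlap Emc9 on the opposite strand.

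Fewer subunits of the 19S particle were called by genotype than by depot, as was so over all genes. In Csn8AKO BAT, 2 of the 11 non-ATPase subunits were higher and 1 of the 6 ATPases lower. There, 16% of all genes were higher and 15.8% lower. Between depots, 6 of the 11 non-ATPase subunits and 2 of the 6 ATPases were higher in Ctrl BAT and none was lower. In that comparison 25.7% of all genes were higher and 27% lower, and the median log2 fold changes of the 2 sets of subunits were 0.28 and 0.15. Psmd8, a lid subunit, differed most among them: it was 65.7, 79.9, 75.7 and 71.2 CPM in Ctrl sWAT and 174, 143, 146, 116 and 142 CPM in Ctrl BAT, with no overlap (log2 fold change 0.93 ± 0.11, adjusted p = 1.58e-05). In Csn8AKO mice it was 86.6, 55.3, 81.4 and 79.4 CPM in sWAT and 112, 154, 152, 139 and 146 CPM in BAT. In Csn8AKO BAT, Psmd6, another lid subunit, was higher: Ctrl values were 36.8, 32.5, 39.1, 30.3 and 34.6 CPM and Csn8AKO values 35.1, 42.0, 46.2, 41.9 and 42.7 CPM, overlapping through Csn8AKO 1 (0.28 ± 0.089, adjusted p = 0.0257). Psmd13 was the other subunit of the lid called higher there (0.23 ± 0.08, adjusted p = 0.0426), with overlap between the groups, and its exons overlap Sirt3 on the opposite strand. The call of Psmd13 was lost without the filter and with all 4 groups in one fit. Psmc1, an ATPase of the base, fell from 82.8, 76.5, 67.2, 64.8 and 74.7 CPM to 60.9, 68.8, 58.1, 61.5 and 52.5 CPM, again with overlap (-0.26 ± 0.087, adjusted p = 0.0371). The call of Psmd6 was lost when any 1 of 4 libraries was left out (Ctrl 2 and 4, Csn8AKO 3 and 5), and that of Psmc1 when any 1 of 7 was (Ctrl 1, 2 and 5, Csn8AKO 1, 3, 4 and 5). In sWAT, Psmd6 was 33.6, 30.9, 29.0 and 30.9 CPM in Ctrl and 38.8, 25.0, 28.1 and 34.6 CPM in Csn8AKO mice. Psmc1 was 52.3, 78.0, 59.8 and 65.2 CPM in Ctrl and 65.9, 42.8, 56.0 and 55.6 CPM in Csn8AKO sWAT, and both overlapped. No 19S subunit was called in sWAT by edgeR, DESeq2 or limma voom, where edgeR called 2.3% of all genes higher and 3% lower. The log2 fold changes ran from -0.34 to 0.24, with Psmd11 at the lower end (-0.34 ± 0.12, adjusted p = 0.126) and its groups not overlapping.

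**Figure D4:**
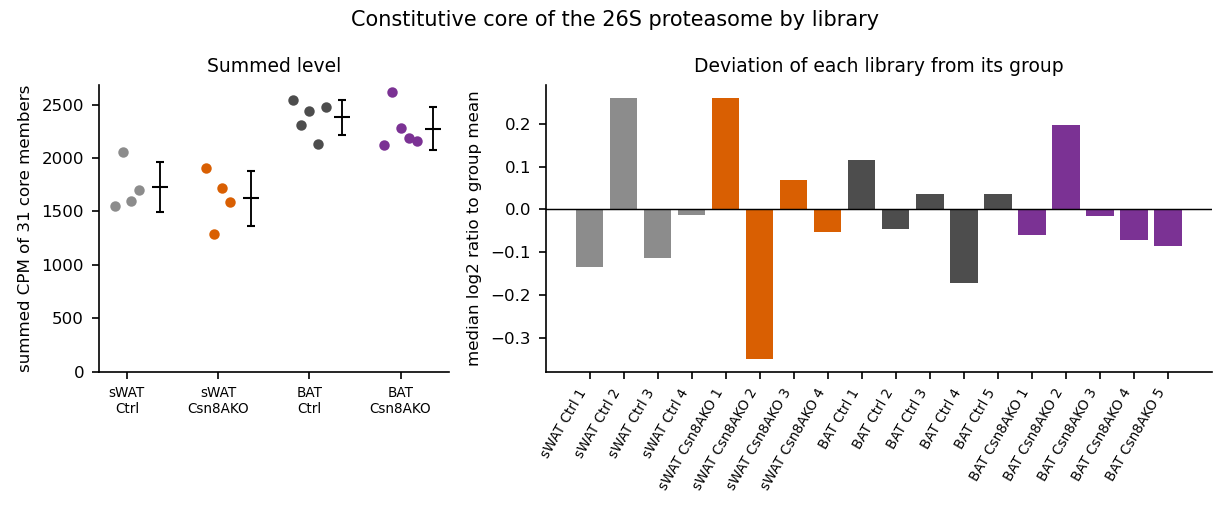
Summed CPM of the 31 tested subunits of the 20S rings and the 19S particle in each library (left, y axis starting at 0, with the mean and SD of each group) and, for each library, the median over these subunits of the log2 ratio to the mean of its group (right). The BAT sums lie above the sWAT sums, and single libraries such as sWAT Ctrl 2 and sWAT Csn8AKO 2 shift nearly all subunits together.

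In some libraries most of the constitutive subunits lay at the same end of their group. Summed over the 31 tested, the level was 1728 ± 229.6 CPM (SD, n = 4) in Ctrl sWAT, 1624 ± 258 (n = 4) in Csn8AKO sWAT, 2379 ± 161 (n = 5) in Ctrl BAT and 2274 ± 203 (n = 5) in Csn8AKO BAT. sWAT Ctrl 2 had the highest value of its group for 30 of the 31 subunits and sWAT Csn8AKO 1 for 26, while sWAT Csn8AKO 2 had the lowest value for 29, at a median of -0.35 on the log2 scale from the mean of its group. In BAT, Csn8AKO 2 was highest for 28 and Ctrl 4 lowest for 23. Other extremes were split: Ctrl 1 was highest in Ctrl BAT for 17, and in Ctrl sWAT the lowest value fell to Ctrl 1 for 15 and to Ctrl 3 for 11. How often the same libraries were highest or lowest over all genes was not counted. The library low in these subunits, sWAT Csn8AKO 2, was also the one with the highest B and T cell markers. BAT Csn8AKO 2 held the highest share of ribosomal RNA in BAT (15.1%). In sWAT, Csn8AKO 3 and 4 held 31.8% and 47.8%, with medians of 0.069 and -0.052 from the mean of their group. The 8 adipocyte markers summed highest of their group in sWAT Ctrl 2 (22729 CPM) and BAT Csn8AKO 2 (22054) and lowest in sWAT Csn8AKO 2 (6485). They were not highest in sWAT Csn8AKO 1 (13937) or lowest in BAT Ctrl 4 (17970). The part of any of these in the shifts was not tested. Without BAT Csn8AKO 2, 18 members were called lower and 2 higher in Csn8AKO BAT, against 18.0% and 17.7% of all genes.

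Of the remaining activators and the inhibitor, Psme3, the nuclear activator, was called higher in Csn8AKO BAT (77.2 ± 5.73 CPM in Ctrl and 90.6 ± 9.90 in Csn8AKO mice, n = 5 each; log2 fold change 0.25 ± 0.086, adjusted p = 0.0378), with overlap between the groups. That call was lost without the filter and with all 4 groups in one fit, which called no member higher. Psme3 was also higher in Ctrl BAT than in Ctrl sWAT (0.58 ± 0.093, adjusted p = 1.81e-04). Psmf1, which encodes an inhibitor of the 20S core, fell in Csn8AKO BAT. Its values were 26.03, 25.1, 23.5, 22.6 and 26.2 CPM in Ctrl BAT and 21.1, 19.7, 18.7, 20.2 and 17.2 CPM in Csn8AKO BAT, without overlap (-0.33 ± 0.084, adjusted p = 0.00875). In sWAT the groups did not overlap either (23.1, 26.7, 20.6 and 19.7 CPM in Ctrl and 18.9, 17.4, 19.02 and 16.2 CPM in Csn8AKO mice), with a log2 fold change close to that in BAT that missed the threshold (-0.32 ± 0.14, adjusted p = 0.227). Psmf1 did not differ between depots at the threshold (0.081 ± 0.11, adjusted p = 0.549). Psme4 and Psme2b were not called between genotypes by edgeR in either depot. In BAT limma voom called 1 of the 4 genes of this group higher and 2 lower, where it called 20.1% and 20.2% of all genes.

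The assembly chaperones held the strongest decrease in Csn8AKO BAT. Of the 8 assembly factors, 3 were lower (Psmg1, Psmd5 and Psmg2), none was higher, where 15.8% and 16% of all genes were called, and the median log2 fold change was -0.22 against 0.0063 over all genes. Psmg1 (ENSMUSG00000022913, chr16:95979933-95990960, minus strand) pairs with Psmg2 to build the alpha ring. It was 20.4, 19.4, 17.3, 17.6 and 17.6 CPM in the Ctrl BAT libraries and 12.4, 13.1, 12.6, 12.1 and 11.3 CPM in the Csn8AKO BAT libraries, and no Csn8AKO library reached the lowest Ctrl value (log2 fold change -0.56 ± 0.087, adjusted p = 2.41e-04). That call held under all 21 alternatives tried for single genes in BAT. No member reached a fold cutoff of 1 on the log2 scale there. Psmg2 fell with it (7.07 ± 0.736 CPM in Ctrl and 5.16 ± 1.097 CPM in Csn8AKO BAT, n = 5 each; -0.43 ± 0.15, adjusted p = 0.0444), at low counts.

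Psmd5, a chaperone of the 19S base, was 26.9, 23.1, 25.6, 20.7 and 19.6 CPM in Ctrl BAT and 18.0, 18.3, 16.2, 16.6 and 16.5 CPM in Csn8AKO BAT, without overlap (log2 fold change -0.41 ± 0.10, adjusted p = 0.00556). The call of Psmd5, like that of Psmf1, was lost with 1 of those 21 alternatives, library size alone. In sWAT neither was called: Psmg1 was 9.17, 11.7, 9.21 and 8.61 CPM in Ctrl and 6.94, 6.69, 7.57 and 9.11 CPM in Csn8AKO mice (-0.34 ± 0.17, adjusted p = 0.312), and Psmd5 was 21.1, 22.4, 20.9 and 22.2 CPM in Ctrl and 22.9, 20.5, 18.9 and 21.1 CPM in Csn8AKO mice (-0.046 ± 0.12, adjusted p = 0.875). Pomp, which guides the beta subunits into the core and which immunoproteasome assembly also needs, had similar values in all groups. It was 32.7, 44.6, 34.1 and 41.8 CPM in Ctrl sWAT and 44.6, 31.8, 38.7 and 35.2 CPM in Csn8AKO sWAT. In BAT it was 40.6, 36.8, 41.1, 36.7 and 37.1 CPM in Ctrl and 34.4, 41.0, 33.9, 32.9 and 33.2 CPM in Csn8AKO mice. Its log2 fold changes were -0.018 ± 0.14 by genotype in sWAT, -0.11 ± 0.078 in BAT and -0.045 ± 0.10 between depots, none of them called. Between depots, 3 of the 8 factors were higher in Ctrl BAT, against 25.7% of all genes, with Psmg1 the furthest (0.88 ± 0.12, adjusted p = 3.54e-05).

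**Figure D5:**
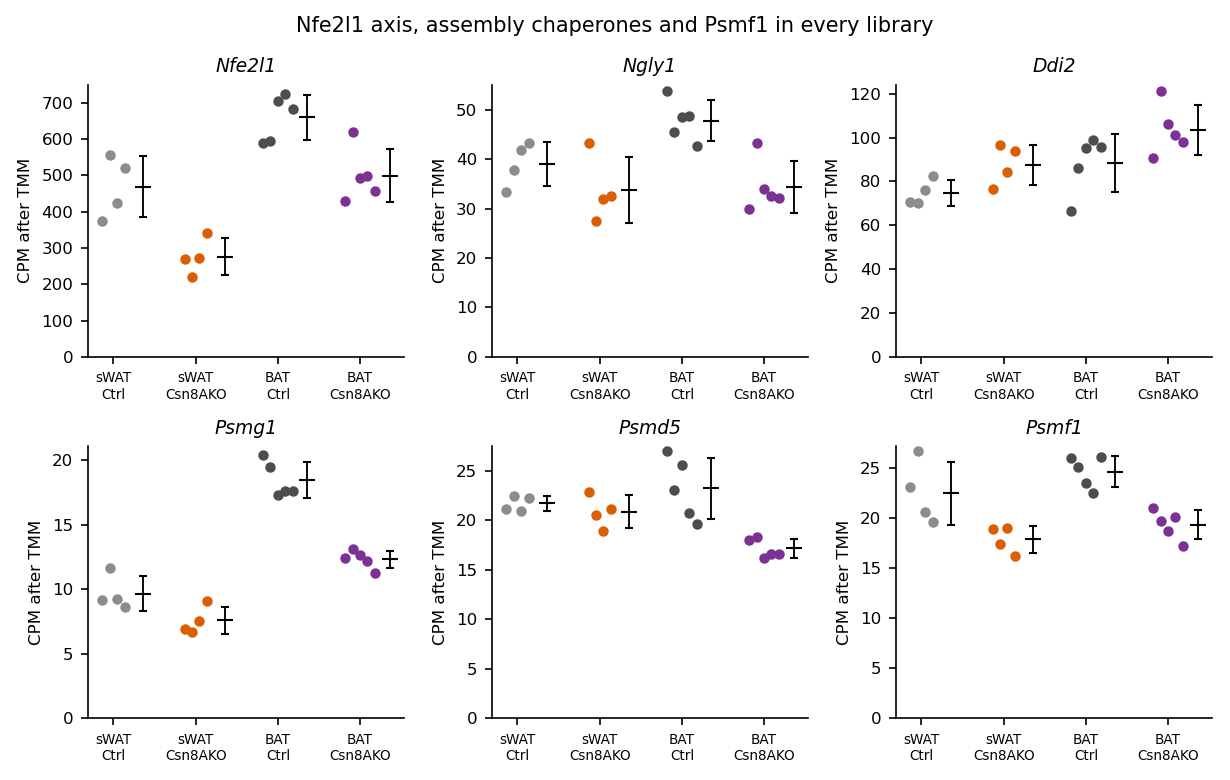
CPM after TMM scaling (y axis, starting at 0) of Nfe2l1, Ngly1, Ddi2, Psmg1, Psmd5 and Psmf1 in each library (points), with the mean and SD of each group. The Csn8AKO points lie below the Ctrl points without overlap for Nfe2l1 and Psmf1 in sWAT and for Psmg1, Psmd5 and Psmf1 in BAT.

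Nfe2l1 (ENSMUSG00000038615, chr11:96817414-96829968, minus strand) was lower in Csn8AKO mice of both depots and was the one member called in each. In sWAT it was 373, 557, 424 and 521 CPM in Ctrl and 269.7, 221, 273 and 342 CPM in Csn8AKO mice, and all Csn8AKO values lay below all Ctrl values (log2 fold change -0.75 ± 0.18, adjusted p = 0.0423, a ratio of 0.593). In BAT it was 589.8, 595, 705, 725 and 683 CPM in Ctrl and 430.4, 619, 492, 498 and 456 CPM in Csn8AKO mice, where Csn8AKO 2 lay within the Ctrl range and the other 4 below it (-0.38 ± 0.11, adjusted p = 0.0168). The sWAT call lay close to the threshold. Leaving out the 2 sWAT libraries rich in lymphocyte markers kept it (-0.76, adjusted p = 0.0200), while leaving out the 2 libraries richest in ribosomal RNA (-0.93, adjusted p = 0.0916) or any 1 of Ctrl 2, Ctrl 3, Ctrl 4, Csn8AKO 1 and Csn8AKO 3 lost it, with log2 fold changes between -0.81 and -0.68. In BAT the call was lost with library size alone (-0.27, adjusted p = 0.0725) and with the lymphocyte marker covariate (-0.23, adjusted p = 0.106). That covariate goes partly with genotype in BAT, so this loss does not tell the 2 apart.

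Adipocyte markers moved with Nfe2l1 in sWAT: the 8 markers summed to 13526 to 22729 CPM in Ctrl and 6485 to 15308 in Csn8AKO mice, with 3 of 8 called lower and none at 0. In BAT they summed to 14767 to 18742 CPM in Ctrl and 15678 to 22054 in Csn8AKO mice, with 2 of 8 called lower. Their part in the change of Nfe2l1 was not tested.

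The enzymes that activate NFE2L1 did not change as one. Ngly1 fell in Csn8AKO BAT, from 53.8, 45.6, 48.5, 48.7 and 42.8 CPM to 29.8, 43.3, 34.0, 32.7 and 32.2 CPM, with 4 of the 5 Csn8AKO values below every Ctrl value and Csn8AKO 2 above the lowest of them (log2 fold change -0.46 ± 0.10, adjusted p = 0.00261). In sWAT its values were 33.3, 37.9, 41.9 and 43.3 CPM in Ctrl and 43.3, 27.6, 31.9 and 32.5 CPM in Csn8AKO mice, which overlapped through Csn8AKO 1 (-0.20 ± 0.15, adjusted p = 0.511). Ddi2, the protease, had estimates in the opposite direction that were not called. In sWAT it was 70.7, 70.0, 75.9 and 82.5 CPM in Ctrl and 76.4, 96.4, 84.1 and 93.7 CPM in Csn8AKO mice (0.24 ± 0.13, adjusted p = 0.336). In BAT it was 66.4, 86.2, 95.3, 98.8 and 95.5 CPM in Ctrl and 90.5, 121, 106, 101.1 and 98.0 CPM in Csn8AKO mice (0.24 ± 0.11, adjusted p = 0.107), and in both depots the groups overlapped. In BAT the fit with library size alone and the one with the lymphocyte marker covariate called it higher. Reads of Ddi2 and Rsc1a1, which overlap on the same strand, cannot be fully separated, and exons of Ngly1 overlap Oxsm on the opposite strand. Between depots Nfe2l1 was higher in Ctrl BAT (0.44 ± 0.14, adjusted p = 0.0164) and in Csn8AKO BAT (0.84 ± 0.17, adjusted p = 0.00151). The former call was lost with library size alone and without sWAT Ctrl 3 (0.41, adjusted p = 0.0501). Ngly1 (0.24 ± 0.10, adjusted p = 0.0546) and Ddi2 (0.19 ± 0.12, adjusted p = 0.190) were not called between depots.

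No genotype effect on a member was found to differ between the depots. The interaction of genotype and depot over all 18 libraries called 0 of the 51 members by edgeR in either direction, where 1.61% and 0.755% of all genes were called. At an unadjusted p under 0.05 by edgeR, 3 members were lower and 0 higher, against 1491 and 1948 of all 22509 genes. Psme1 had the smallest adjusted p of all members (a BAT effect minus sWAT effect of -0.41 ± 0.13, adjusted p = 0.108), and it was called by DESeq2 (-0.39, adjusted p = 0.0424) and by limma voom (-0.50, adjusted p = 0.0268). Each of the 2 called 1 member lower, against 1.63% and 1.47% of all genes. The difference of the effects was 0.36 ± 0.21 (adjusted p = 0.452) for Nfe2l1 and -0.23 ± 0.17 (adjusted p = 0.570) for Psmg1. It was -0.38 ± 0.15 (adjusted p = 0.199) for Psmd5 and -0.27 ± 0.19 (adjusted p = 0.528) for Ngly1. The changes of Psmg1, Psmd5 and Ngly1 in BAT are thus not shown to differ from those in sWAT.

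Other genes of the ubiquitin-proteasome pathway, such as shuttle factors, deubiquitinases of the 19S particle and ubiquitin genes, were called in both directions in BAT. Of the 28 tested, 4 rose and 4 fell in Csn8AKO BAT, where 16% of all genes rose and 15.8% fell. The smallest adjusted p among those that rose belonged to Rps27a, a ubiquitin fusion gene (0.37 ± 0.067, adjusted p = 8.35e-04), and to Ubqln1, a shuttle factor (0.40 ± 0.084, adjusted p = 0.00239). Among those that fell, Usp14, a deubiquitinase bound to the 19S particle, had the smallest (-0.32 ± 0.10, adjusted p = 0.0224). In sWAT none was called by edgeR, DESeq2 or limma voom in either direction. At an unadjusted p under 0.05 by edgeR, 1 was higher and 4 were lower there, against 1862 and 1976 of all 18843 genes. In Ctrl mice 9 were higher in BAT and 5 lower, against 25.7% and 27% of all genes.

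The class I antigen presentation genes, which the immunoproteasome serves, were mostly lower in BAT, as Psmb8 and Psmb9 were. Of the 13 tested, 10 were lower in Ctrl BAT than in Ctrl sWAT and none was higher (median log2 fold change -0.47), against 27% and 25.7% of all genes. The macrophage, T and B cell markers were lower in BAT as well (8, 7 and 6 called), and their part was not tested. The smallest adjusted p belonged to Nlrc5, the transactivator of class I genes (-2.09 ± 0.15, adjusted p = 1.21e-07), and B2m, the class I light chain (-2.02 ± 0.15, adjusted p = 1.25e-07). Tap1, whose exons overlap those of Psmb9, was also lower (-1.36 ± 0.26, adjusted p = 0.00152). By genotype, 1 rose and 3 fell in Csn8AKO BAT, where 16% and 15.8% of all genes did (B2m rose, 0.34 ± 0.12, adjusted p = 0.0481; the 2 of smallest adjusted p that fell were H2-K1, -1.12 ± 0.21, adjusted p = 0.00116, and Erap1, -0.38 ± 0.078, adjusted p = 0.00197), with none of these genes called in sWAT by edgeR. At an unadjusted p under 0.05 by edgeR, 0 were higher and 2 lower in sWAT, against 1862 and 1976 of all 18843 genes. DESeq2 called 0 higher and 0 lower there, and limma voom 0 higher and 1 lower. Over all genes DESeq2 called 5.00% higher and 5.60% lower in sWAT, and limma voom 5.72% in each direction. Rps27a and H2-K1 have near-identical relatives in the genome, so that their counts are uncertain.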

How the data were processed

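Libraries were made from total RNA after depletion of ribosomal RNA and sequenced as paired reads of 150 bases. The authors aligned the reads to GRCm38, with the annotation of Ensembl, by STAR 2.7.9a. They deposited, for each library, the count of uniquely aligned, unambiguous reads from featureCounts on each of 55487 genes, without normalization. Between 64.9% and 74.4% of the counts from 1 to 20 were even, as when the mates of a pair are counted separately, so that a count of 10 can stand for fewer fragments. Normalized columns beside the counts were not used.

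Groups were compared with edgeR 4.0.16 in R 4.3.3: TMM factors, filterByExpr (smallest count 10, smallest total 15), quasi-likelihood fits with robust dispersions within each depot (and over all 18 libraries for the interaction, and over the 9 Ctrl libraries for the depots), and Benjamini-Hochberg adjustment over all genes tested, with calls at an adjusted p under 0.05. The ± beside a log2 fold change is its SE. Printed CPM are scaled by TMM over all 18 libraries. Each library is 1 mouse. The fits were tested on simulated data. Replicate numbers were not treated as pairs in the main fits, and no library's counts repeated those of another in its group. Alternatives were RLE factors, library size alone, no filter, DESeq2 1.42.0, limma 3.58.1 voom, other gene sets, a replicate block, a covariate for B and T cell markers, a fit of all 4 groups, a fold cutoff of 1 on the log2 scale, and libraries left out. Sequences came from the RefSeq promoter table (GRCm38.p6), and gene positions from the files.

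The members and lists were chosen with earlier results of these data known. Values in every library are given for the immunoproteasome genes, Psmb5, Psmb6, Psmb7, Pomp, Nfe2l1, Ddi2, Ngly1, the 8 other members of smallest adjusted p in each depot, the 4 of the interaction, and the 3 of largest depot difference in each direction, all with an adjusted p under 0.05. Of the other pathway genes, the 2 of smallest adjusted p in each direction are named, except 1 that is not reported here. Other members named by a fold change (Psma5, Psmc2, Psmd11, Psmd13, Psme3, Psmg2 and Psmg4), and Nlrc5, B2m and Tap1 in the depot comparison, were chosen after their values were seen.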

Additional observations from a re-analysis of the deposited data

Results flagged for a closer look

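Of the 108 groups of 4 or 5 libraries screened (22 named genes and 5 ratios), 5 held a library far from the rest of its group, where chance alone marks about 1 in 20 groups. Psmb5 was 19.2 CPM in sWAT Csn8AKO 2, below the other 3 Csn8AKO libraries, and its Psmb8 to Psmb5 ratio of 0.451 stood above them. That library also had the highest B and T cell markers. In BAT Csn8AKO 2, Psmb7 was 71.2 CPM and Pomp 41.0 CPM, both above the other 4 libraries of the group. The Psmb10 to Psmb7 ratio was 1.58 in sWAT Ctrl 2, below the other 3. No member's genotype effect differed between the depots in the interaction test by edgeR.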

How the results depend on the processing

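With each library left out in turn, 0 to 1 members were called lower in sWAT, 0 to 5 higher and 5 to 18 lower in BAT, and 21 to 30 higher in Ctrl BAT than in Ctrl sWAT, where 3 were lower each time. Over all genes these fits called 0.909% to 3.51% lower in sWAT, and 13.0% to 17.7% higher and 12.2% to 18.0% lower in BAT. Between depots they called 23.2% to 25.4% higher and 24.6% to 27.0% lower. Leaving out BAT Csn8AKO 2 gave the 18 and BAT Csn8AKO 4 the 5, with 18.0% and 12.2% of all genes lower. The calls of Psmg1 and Ngly1 in BAT and of Psmb3, Psmb5, Psmb7, Psmb8, Psmb9, Psma6, Psmd8 and Psmg1 between depots held under all alternatives tried for single genes, which leave out the fold cutoff. At that cutoff the depot comparison kept 2 higher and 2 lower members, against 2876 and 3777 of all 22381 genes. The sWAT call of Nfe2l1 was also lost with RLE factors (0 members and 2.75% of all genes lower) and library size alone (0 and 1.74%). It was lost as well with a fold cutoff of 1 on the log2 scale (0 members and 359 of 18843 genes lower). The same held without the 2 libraries richest in ribosomal RNA (0 and 252 of 21030). All 4 groups in one fit gave 2 members and 6.30% of all genes lower. In BAT, library size alone gave 8 members higher and 2 lower, against 18.7% and 9.34% of all genes. No filter gave 0 higher, against 8.15%. All 4 groups in one fit gave 0 higher and 7 lower, against 11.5% and 11.9%. The B and T cell marker covariate gave 4 lower, against 12.2%. Leaving out the 2 libraries richest in ribosomal RNA gave 1 higher, against 3706 of 22727 genes. The fold cutoff of 1 gave 0 in either direction, against 1530 higher and 930 lower of 22345 genes. The depot comparison with library size alone called 11 members and 16.9% of all genes higher, with the median of all genes at -0.19. For the interaction, DESeq2 and limma voom each called 1 member lower, against 1.63% and 1.47% of all genes. The replicate block called 0 members lower in sWAT, 1 higher and 10 lower in BAT, and 24 higher between depots. Over all genes it called 0.876% lower in sWAT, 15.0% higher and 15.3% lower in BAT, and 23.0% higher between depots. The deviations of same-numbered libraries correlated at -0.39 to 0.22 and those of differently numbered ones at -0.43 to 0.67. With 4 or 5 mice per group these values cannot show whether the numbers mark a pairing. In the Csn8AKO libraries the depot difference had the other sign for Psme1 (-0.072) and Psmd5 (-0.30). Others called in neither genotype also changed sign: Psma7 (-0.18 against 0.15 in Ctrl), Psma5 (-0.068 against 0.032) and Psmg2 (-0.080 against 0.29). The same held for Psmg4 (-0.14 against 0.17) and Psmc2 (0.20 against -0.13). The cause of these differences was not tested. The fits on Csn8AKO libraries and without 2 libraries at once were chosen after seeing the data. Psma8 and Psmb11 were too low to test.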
